A study of Gorilla gorilla with 12 samples.

Results

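Aminoacyl-tRNA synthetases load each amino acid onto its transfer RNA, the step that fixes the genetic code before the ribosome reads it. The 10 genes described here, GARS1, WARS1, YARS1, IARS1, SARS1, AARS1, MARS1, CARS1, EPRS1 and NARS1, encode synthetases of the cytosol. They were chosen by name, with earlier results of these data known. Every probe set that the array annotation gives to 1 of these symbols alone was used. That gave 10 probe sets of 9 genes, out of 12625 probe sets in all, and 5480 genes could be tested on the array. The probe set listed for MARS1, the methionine enzyme, also carries another symbol, so MARS1 has no value here.

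In mammalian cells many synthetase genes of the cytosol are transcribed under ATF4, the transcription factor that rises when amino acids run short or when proteins misfold in the endoplasmic reticulum. ATF4 also drives genes that make or import amino acids, such as asparagine synthetase, ASNS. Synthetases of mitochondria are encoded by a separate gene set, with GARS1 and KARS1 serving both compartments. WARS1, the tryptophan enzyme, stands somewhat apart, because in human cells it is strongly induced by interferon gamma.

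The RNA came from cultured fibroblast lines of gorillas, 1 array for each culture and 12 arrays in all. In a single line, male 2 (KB_7621, donor of 26 years), a second culture was harvested at 50% confluence. The other 11 arrays held standard cultures of 5 male lines, with donors of 19, 26, 24, 18 and 3 years, and 6 female lines, with donors of 19, 19, 35, 26, 30 and 2 years. All donors are labelled normal, lines are numbered within each sex in the order of the labels, and the numbers match no male to a female. The labels give no density for the standard cultures.

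Intensities were deposited on a linear scale with a floor of 100, and 40.1% to 49.2% of the probe sets on an array stood at it. Fibroblast markers, each on its brightest probe set, were above the floor on all 11 standard arrays. COL1A2 had 12733 to 23742, but LUM 619 to 2245 and PDGFRA 499 to 1637. KRT5, KRT14, VWF and PTPRC, markers of epithelium, endothelium and leukocytes, were at the floor on all 11. Other markers of those cells were not. KRT8 had 882 to 1662, CD68 420 to 1080 and CD3E 140 to 252. CD14 had up to 1673, with 9 lines above the floor, and TEK up to 327, with 4 lines above it. Of the melanocyte markers, MLANA had 106 to 247 and PMEL up to 433, with 3 lines above the floor. Of the skeletal muscle markers, MYOG had up to 550, with 10 lines above the floor, while DES, MYOD1 and CKM had at most 138. Their part in the synthetase values was not tested. RPS4Y1, a Y-linked gene, had 2662 to 4363 in the male lines. It had 100 to 115 in 5 of the lines labelled female but 2595 in the line labelled female 3, which therefore goes against its sex label. The main synthetase results are given with and without it. The 3' to 5' intensity ratio, which reflects RNA integrity, lay between 0.821 and 1.34 for GAPDH, and between 0.672 and 1.19 for ACTB.

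All 10 synthetase probe sets passed the filter on dim probe sets, and none was at the floor on any array, so every value given for them was a measured level. The probes were designed on human sequence and hybridised with gorilla RNA, so no synthetase's level is set against that of another. Intensities are given as deposited, and differences are in log2 units after quantile normalization of the 12 arrays.

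SARS1 (34849_at), which charges serine transfer RNA and also the selenocysteine one, had the widest spread between lines. Its intensities were 6100, 3919, 1907, 3642 and 2732 in males 1 to 5, and 2081 to 5119 with a median of 2959.5 in the 6 females. Male 1 and female 4 were highest and male 3 and female 3 lowest, with the sexes overlapping along most of the range. AARS1 (36185_at), the alanine enzyme, gave 3266, 2481, 1502, 2635 and 1716 in the males, and 1505 to 3019 with a median of 2230.5 in the females. The same male 1 and female 4 arrays were its brightest and the same male 3 and female 3 its dimmest.

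GARS1, the glycine enzyme of cytosol and mitochondria, had a pair of probe sets. The brighter (36581_at) read 3623, 4356, 2515, 3148 and 2915 in males 1 to 5, and 2207 to 4141 with a median of 3154 in the females. The dimmer (36582_g_at) read 2539, 3610, 1747, 3123 and 2515 in the males, and 1272 to 2898 with a median of 2588 in the females. Both were highest in male 2 and lowest in female 3. Over the 11 standard arrays they ran together, with Pearson's r of 0.872 and Spearman's rho of 0.682, as a description of probe sets of the same transcript.

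The synthetases of the large multienzyme complex differed in how much they varied. EPRS1 (35300_at), a fused enzyme that charges both glutamate and proline transfer RNAs, had 1814, 1812, 1471, 1686 and 1505 in the males, and 1081 to 1639 with a median of 1480 in the females. Its SD over the 11 lines was 0.23 log2 units, lower than that of all but 7.40% of the tested probe sets. IARS1 (40827_at), the isoleucine enzyme of the same complex, had 1408, 1825, 1384, 1468 and 1757 in the males. In the females it had 1174 to 2751 with a median of 1375, and the highest value belonged to female 6, the donor of 2 years. The other 5 female lines did not exceed 1534.

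CARS1 (40408_at), the cysteine enzyme, had 1623, 1747, 1317, 1060 and 1066 in the males, and 656 to 2043 with a median of 1225 in the females. Its lowest value was in female 5 and its highest in female 4. YARS1 (38977_at), the tyrosine enzyme, whose fragments can act as cytokines, had 1269, 897, 849, 901 and 1061 in the males, and 547 to 1376 with a median of 996.5 in the females. Its lowest value was in female 3 and its highest in female 6.

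WARS1 (38121_at) had 867, 802, 816, 1255 and 1095 in the males, and 974 to 1467 with a median of 1042.5 in the females. Males 1, 2 and 3 lay below all 6 females, and males 4 and 5 within their range. NARS1 (41241_at), the asparagine enzyme, had 1426, 1075, 2117, 1508 and 1071 in the males, and 924 to 2217 with a median of 1536.5 in the females. Male 3, lowest of the 11 for SARS1 and AARS1, had the second-highest NARS1 value.

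**Figure D1:**
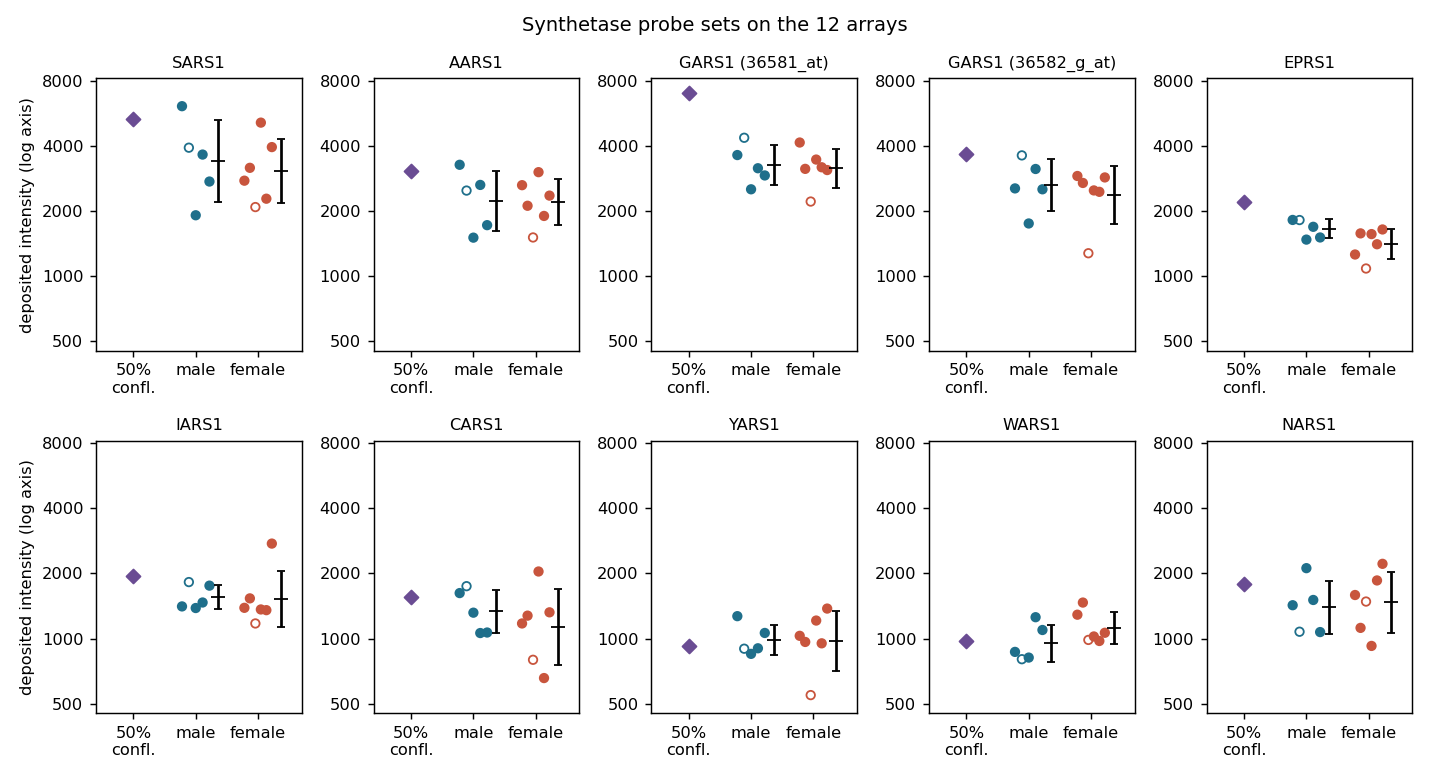
Deposited intensity (log axis) of the 10 synthetase probe sets in the culture of male 2 at 50% confluence (diamond), the 5 male lines and the 6 female lines under standard conditions (circles). Open circles mark male 2 and female 3, and bars give the mean and SD of the log2 values; the sexes overlap in every panel, and the diamond lies above all circles for both GARS1 probe sets and EPRS1.

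As a group the synthetases varied about as much as other genes did. The highest standard array exceeded the lowest by 1.68-fold for EPRS1 and by 3.20-fold for SARS1, the extremes among the 10 probe sets. The median SD of the 9 genes was 0.35 log2 units, against 0.40 for all 5480 genes tested. SARS1 had the largest SD at 0.50 and EPRS1 the smallest.

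Across lines, most pairs of these synthetases were positively correlated, though 1 of the 36 pairs passed the test. SARS1 and AARS1 were the closest couple, with r of 0.898 and rho of 0.882 over the 11 lines. Of the 36 gene pairs, 27 had a positive r and 16 an r above 0.5, with a median of 0.355. No counts for pairs of genes from the whole array are set beside these. With permutation p-values adjusted over the 36 pairs, SARS1 with AARS1 was the 1 pair to pass (r, permutation p = 0.00023, adjusted p = 0.00828; rho, permutation p = 0.00065, adjusted p = 0.0234). Its r was 0.82 without the lines farthest from the median of SARS1, and 0.876 without female 3. Among the other pairs 6 had an unadjusted p under 0.05 for r and did not pass the adjustment.

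WARS1 and NARS1 did not share the pattern. The r of WARS1 with the mean of the other synthetases was 0.037, and that of NARS1 was -0.24. NARS1 had a negative r with 7 of the other 8 genes, reaching -0.45 with CARS1. Among the remaining 7 genes, set apart after their values were seen, all 21 pairs were positive, with a median r of 0.58. Part of this rested on female 3: without that line the median over the 36 pairs was 0.155, and 6 pairs were above 0.5, with 27 still positive. Without the lines farthest from the median of 1 gene of the pair, most of the 21 pairs stayed positive but some did not. The lowest was then -0.23, for GARS1 with EPRS1, with the lines chosen on GARS1.

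After normalization female 3 was lowest of the 11 for GARS1, EPRS1, IARS1 and YARS1, and below the median for 8 of the 9 genes, NARS1 being at its median. Over all tested probe sets that array was lowest for 9.06%. Male 3 was lowest for SARS1, AARS1 and WARS1. Female 6 was highest for IARS1, YARS1 and NARS1 and below the median for none. The shares of all probe sets with male 3 lowest or female 6 highest are not given here. When each gene was scaled to its SD over the lines and averaged, the mean was 0.87 in female 6, 0.48 in male 1 and 0.41 in male 2, against -0.67 in male 3 and -1.31 in female 3.

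**Figure D2:**
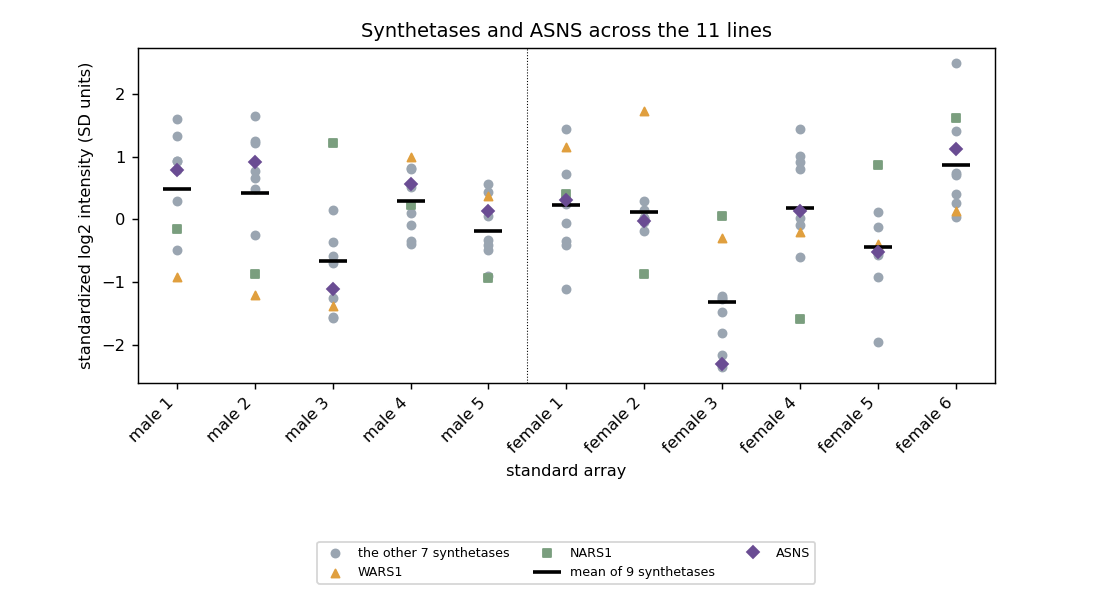
Standardized log2 intensity (SD units) of the 9 synthetases on each of the 11 standard arrays, males on the left of the dotted line, with NARS1 (squares), WARS1 (triangles), the mean of the 9 genes (bars) and ASNS (diamonds). The mean is highest in female 6 (0.87) and lowest in female 3 (-1.31), and ASNS follows it from line to line.

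ASNS makes asparagine from aspartate and glutamine. Its intensities were 2111, 2066, 880, 1759 and 1460 in the males, and 509 to 2212 with a median of 1464 in the females, lowest in female 3 and highest in female 6. Of 5132 probe sets that could be ranked, ASNS had the highest correlation with the mean of the synthetases (r = 0.975, rho = 0.964, 11 lines), a rank that chose it and is therefore given with no test. Without female 3 its r was 0.953, or 0.959 with that mean scaled anew, and without the lines farthest from the median of the mean 0.925. With median scaling of the arrays in place of quantile normalization it was 0.784. Gene by gene, ASNS had an r of 0.847 with EPRS1, 0.844 with YARS1, 0.809 with AARS1, 0.803 with SARS1 and 0.77 with GARS1, against 0.164 with WARS1 and -0.11 with NARS1. Without female 3 these were 0.665 with EPRS1, 0.611 with YARS1, 0.774 with AARS1, 0.828 with SARS1 and 0.604 with GARS1.

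The next nearest genes were a mixed group. CCNT2, the cyclin partner of the elongation kinase CDK9, had an r of 0.88, at 100 to 217 on the 11 arrays, and the amino acid transporter gene SLC1A5 one of 0.859. BRD3, a reader of acetylated histones, had 0.857, and PLEC, the cytoskeletal linker plectin, 0.85. PCK2, the mitochondrial enzyme that makes phosphoenolpyruvate and is known as an ATF4 target, had 0.83, ACTN1, an actin crosslinker, 0.829, and the deubiquitinase gene USP19 0.828.

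The listed genes of the amino acid response leaned the same way. The counts include ASNS and SLC1A5, which were picked above by their r with this same mean. Of the 34 genes listed, 24 were tested, and 20 of them (83.3%) had a positive r with the synthetase mean, against 49.3% of all genes tested. An r above 0.5 was reached by 7 of the 24 (29.2%), against 7.14% of all genes. Among these were ASNS and SLC1A5, EIF4EBP1, an inhibitor of cap-dependent translation (r = 0.813), and PHGDH, the first enzyme of serine synthesis (0.759). The rest were the transporter genes SLC7A5 (0.594), SLC1A4 (0.571) and SLC7A1 (0.502, with a rho of 0.136). ATF4 itself had an r of 0.33 and a rho of 0.70. DDIT3 (-0.085), PPP1R15A (-0.21), STC2 (-0.32) and CEBPB (-0.47, with a rho of -0.064) were on the other side. Stress genes of the list lay on both sides, with NUPR1 at 0.437, ATF5 at 0.397 and DDIT4 at 0.052.

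Synthetases outside the named set did not share the pattern to that degree. The list of other cytosolic synthetases had 6 tested genes, 1 of them positive, with a median r of -0.20. TARS1, the threonine enzyme, had 0.412, while FARSA, a phenylalanine enzyme subunit, had -0.086, KARS1, the lysine enzyme, -0.15, VARS1, the valine enzyme, -0.26, HARS1, the histidine enzyme, -0.51 and RARS1, the arginine enzyme, -0.70. HARS1 was close to the floor throughout, at 100 to 240. The 5 mitochondrial synthetases tested had a median r of -0.0073, from -0.37 for FARS2 to 0.229 for IARS2. The mean contains the members, so the values of these other synthetases are set against those of the whole array, where the median was -0.0064.

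**Figure D3:**
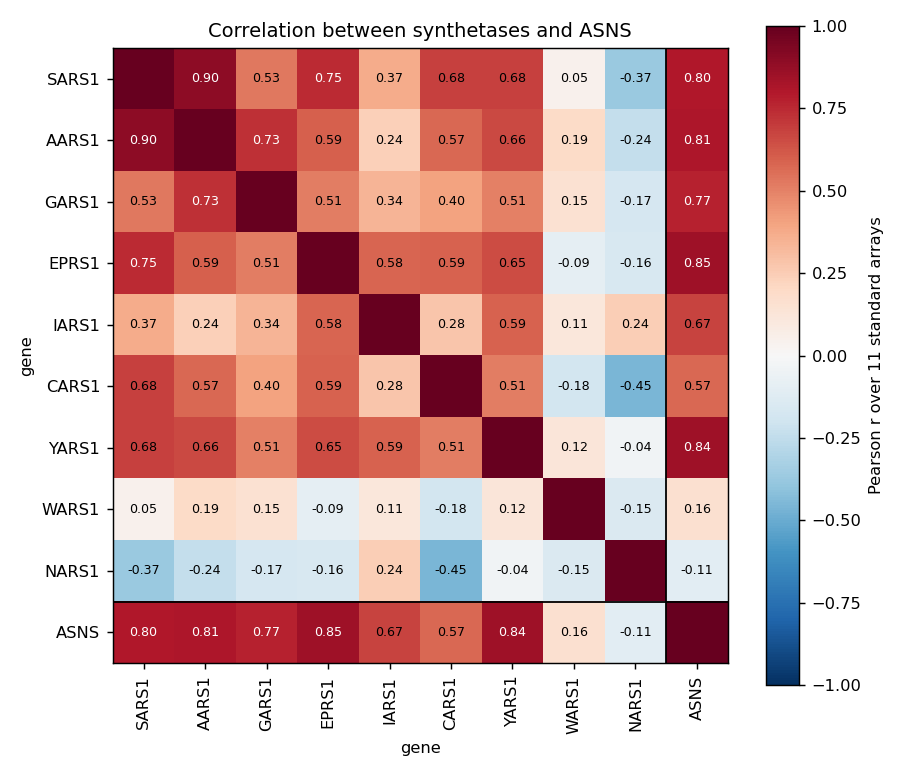
Pearson correlation over the 11 standard arrays between the 9 synthetases, with ASNS in the last row and column. The values run from -0.45 (CARS1 with NARS1) to 0.898 (SARS1 with AARS1), and the NARS1 row holds mostly negative values.

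Other measures of the arrays moved with the synthetase mean too. Its r was 0.678 with the 3' to 5' ratio of GAPDH, -0.51 with that of ACTB, -0.51 with the percentage of probe sets at the floor and -0.60 with donor age. Without female 3 these were 0.596, -0.26, -0.62 and -0.41. ASNS had an r of 0.728 with the GAPDH ratio. The mean of 24 cell cycle genes had an r of 0.023 with the synthetase mean, or -0.51 without female 3. The part of RNA quality, signal or age in the shared pattern was not tested.

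For the genes that left the pattern, the nearest neighbours differed. WARS1 ran closest to FEV (r = 0.817), ARR3 (0.815), RTN4, a shaper of endoplasmic reticulum tubules (0.813), and STAT3, a transcription factor of cytokine signalling (0.792), with FEV at 100 to 523 and ARR3 at 111 to 250 near the floor. NARS1 ran closest to JUNB, a subunit of the AP-1 factor (0.84), CD7 (0.82), TXLNA (0.805) and HNRNPD, an RNA-binding protein gene (0.805). With the 11 tested genes of the interferon gamma response, WARS1 had a median r of -0.0095, from -0.84 for TAP1 to 0.535 for GBP1. CXCL9, CXCL10 and GBP2, which interferon induces strongly, had at most 116, 107 and 112 on any standard array. Others of that list stood higher in part of the lines, with IRF1 up to 428, IDO1 up to 258 and GBP1 up to 180. Still others were above the floor in all 11, such as TAP1 (172 to 404), PSMB9 (556 to 1644) and PSMB10 (623 to 1519).

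The culture of male 2 at 50% confluence was set against the standard culture of the same line, with 1 array for each condition, so no replicate stands behind these differences and no p-value is given. In this pair 7 of the 9 synthetases were higher at 50% confluence, with a median difference of 0.21 log2 units, against 48.3% of all probe sets higher. Under median scaling all 9 were higher, with YARS1 and CARS1 changing direction, but there the median of all probe sets also moved up, by 0.44, and relative to it 8 of the 9 lay above.

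GARS1 and NARS1 had the largest differences, and which of them led depended on the scaling. The brighter GARS1 probe set read 7048 at 50% confluence and 4356 in the standard culture, a normalized difference of 0.65, or 1.57-fold. The other GARS1 probe set read 3682 and 3610, a difference of -0.075, so the probe sets of this gene disagreed, and their mean differed by 0.29. NARS1 read 1797 at 50% confluence and 1075 in the standard culture, a difference of 0.64 or 1.55-fold. As deposited NARS1 was ahead, at 1.67-fold against 1.62-fold for GARS1, and with median scaling too, at 1.24 against 1.19 log2 units. These were the 2 genes at or above 1.5-fold higher, where 18.9% of all probe sets stood, and none was 1.5-fold lower, against 18.6% of all. None reached 2-fold in either direction, which 7.04% of all probe sets did upward and 7.23% downward.

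SARS1 read 5313 and 3919 (0.36), AARS1 3054 and 2481 (0.26), EPRS1 2188 and 1812 (0.21) and WARS1 976 and 802 (0.19), with the value at 50% confluence first in each. IARS1, at 1955 and 1825, differed by 0.026. CARS1 was lower, at 1549 against 1747 (-0.25). With median scaling CARS1 differed by 0.32, which was -0.12 relative to the median of all probe sets. YARS1 read 921 against 897 but differed by -0.064 once normalized. Once normalized, the culture at 50% confluence lay above all 11 standard arrays for the brighter GARS1 probe set and for EPRS1, and within their range for the other 8. As deposited, the dimmer GARS1 probe set also lay above them, at 3682 against at most 3610. Over all tested probe sets 6.83% lay above that range and 4.76% below it. WARS1 in the culture at 50% confluence was also lower by 0.15 than the mean of the 11 lines, and CARS1 higher by 0.31 than that mean, each opposite in sign to its difference from male 2.

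**Figure D4:**
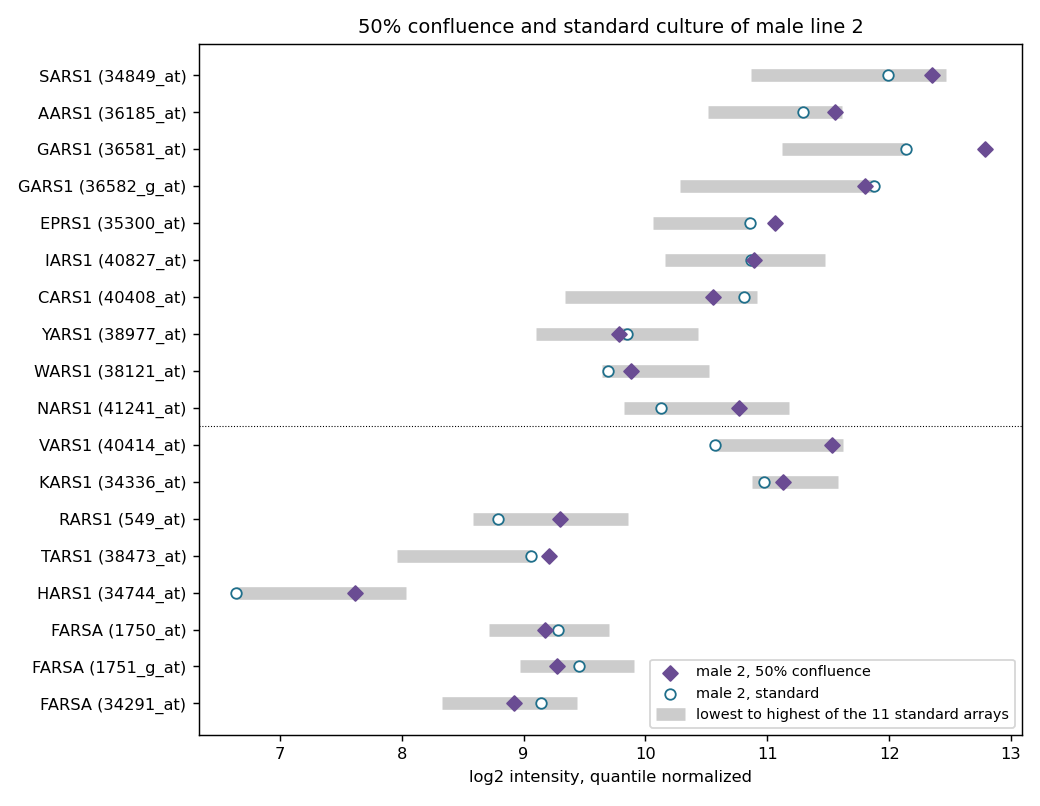
Quantile-normalized log2 intensity of male 2 at 50% confluence (diamonds) and in standard culture (open circles), with the lowest to highest of the 11 standard arrays in grey, for the 10 synthetase probe sets (above the dotted line) and 8 probe sets of other cytosolic synthetases. GARS1 (36581_at), EPRS1 and TARS1 lie above the grey bars.

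Of the other cytosolic synthetases 5 of 6 were higher at 50% confluence, with a median of 0.33. VARS1 read 2999 against 1485 (0.96), RARS1 624 against 455 (0.51), KARS1 2312 against 1989 (0.16) and TARS1 588 against 543 (0.15). HARS1 read 173 against the floor of 100, at least 1.73-fold higher as deposited. FARSA was lower on all 3 of its probe sets, with differences of -0.22 to -0.11, with readings of 475 to 615 against 569 to 693. AIMP1, a scaffold of the multienzyme complex, was near the floor, at 120 against 140 as deposited, while its normalized difference was 0.24, in the opposite direction. Among the mitochondrial synthetases, 3 of 5 higher, YARS2 (514 against 924, -0.86, on a probe set that can match related sequences), FARS2 (0.47), IARS2 (0.45) and LARS2 (100, the floor, against 153) differed most.

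The wider amino acid response went in no common direction in this pair, with 12 of 24 genes higher and a median of -0.0061. Of the 24, 5 lay above all 11 standard arrays, against 6.83% of all probe sets, and 0 lay below them, against 4.76%. ASNS was higher, at 2934 against 2066 (0.46), above all 11 standard arrays. The largest differences were those of ATF5 (1595 against 3679, -1.29), STC2 (100, the floor, against 263), PSPH, the last enzyme of serine synthesis (442 against 229, 1.14), and NUPR1 (2842 against 5577, -1.05). In the interferon gamma list 2 of 11 genes were higher, led by PSMB8 (362 against 156), while IRF8 and HLA-DRA were at the floor of 100, against 261 and 231 in the standard culture, and IRF1 had 173 against 337. Beside these, 23 of 24 cell cycle genes were higher, with a median of 1.16, and the array at 50% confluence had 49.2% of its probe sets at the floor, against 40.1% for the standard array. Their part in the synthetase differences was not tested.

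No synthetase differed detectably between the sexes. limma called 0 of 7541 probe sets (0%) at an adjusted p of 0.05, with 398 (5.28%) at an unadjusted p under 0.05 and none of the synthetases among those. The Y-linked RPS4Y1 was not called either, with female 3 counted as female (difference 4.36, limma adjusted p = 0.0981). Without female 3 limma called 1 probe set, which was no synthetase. EPRS1 averaged 1658 ± 164 (SD, n = 5) in the male lines, against 1418 ± 216 (SD, n = 6) in the female lines, a difference of 0.23 log2 units with a 95% interval of -0.15 to 0.61 (limma adjusted p = 0.889), and CARS1 one of 0.24 (-0.33 to 0.81, limma adjusted p = 0.907). Without female 3 these were 0.15 for both EPRS1 and CARS1, and with other single lines left out CARS1 ran from 0.083 without female 5 to 0.40 without female 4. WARS1 was the most negative, at 967 ± 200 (SD, n = 5) in the male lines, against 1133 ± 200 (SD, n = 6) in the female lines, or -0.22 (-0.64 to 0.20, limma adjusted p = 0.896). The others lay between -0.076 for NARS1 and 0.16 for the dimmer GARS1 probe set. Without female 3, SARS1 had 0.040 in place of 0.15, and AARS1, the brighter GARS1 probe set, IARS1 and YARS1 turned negative, at -0.087, -0.068, -0.061 and -0.16. The difference was positive for 7 of the 9 genes, where 48.9% of all probe sets were positive, and their median was 0.023, against -0.015 for all genes tested, and the sexes overlapped for all 10 probe sets, while 0.358% of all probe sets had groups that did not overlap.

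The intervals reached at most 0.81, so a male excess of 2-fold lay outside the limma interval of every synthetase, while smaller differences could not be told from 0 at this number of arrays. For the lists beside them, the amino acid response had 17 of 24 genes higher in males, with a median of 0.10 and 0 called, led by SLC1A4 (0.68), SLC7A1 (0.44), VLDLR (0.42) and EIF4EBP1 (0.40). In the interferon gamma list, 6 of 11 higher in males, IDO1 (-0.47), IRF1 (0.37), HLA-DRA (0.35) and TAP1 (0.32) had the largest differences, none called. In the mitochondrial list, 5 of 5 higher, these were HARS2 (0.29), LARS2 (0.22), FARS2 (0.15) and IARS2 (0.063). The other cytosolic synthetases had 4 of 6 genes higher, with a median of 0.055 and 0 called. Cell cycle genes were higher in males for 24 of 24, with a median of 0.69 and 0 called, and their part in the synthetase values was not tested.

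Slopes with donor age were negative for all 10 synthetase probe sets, though that of GARS1 was 0.014 with median scaling, and none was called. limma called 0 of 7541 probe sets for age (0%), with 407 (5.4%) at an unadjusted p under 0.05, and 49.4% of all slopes were positive. IARS1 had the steepest slope, -0.28 log2 units per 10 years (SE 0.10, limma adjusted p = 0.851), then YARS1 at -0.25 (SE 0.11, limma adjusted p = 0.866), the 2 synthetases with an unadjusted p under 0.05. The dimmer GARS1 probe set had -0.19, SARS1 -0.15 and WARS1 -0.12, and the rest ran from -0.086 for EPRS1 to -0.043 for the brighter GARS1 probe set. The median of the 9 genes was -0.086, against -0.0015 for all genes.

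The slopes depended on single lines and on the age range, in different directions for different genes. IARS1 had 2751 in the donor of 2 years and 1757 in that of 3, against 1174 to 1825 in the 9 adult lines, and YARS1 had 1376 and 1061, against 547 to 1269. Without female 6, the donor of 2 years, the slope of IARS1 was -0.12, and that of NARS1, -0.065 with all lines, was 0.17. Without female 3, labelled as the donor of 35 years, the slope of YARS1 was -0.14, and those of GARS1, AARS1 and CARS1 were 0.049, 0.011 and 0.0015, positive in place of -0.043, -0.079 and -0.075. Those of SARS1 and EPRS1 were then -0.073 and -0.029. In donors of 10 years or older alone, the slope was steeper for SARS1 (-0.41), AARS1 (-0.44), YARS1 (-0.40), WARS1 (-0.39), CARS1 (-0.30), GARS1 (-0.28) and EPRS1 (-0.17), less steep for IARS1 (-0.12), and positive for NARS1 (0.096), with 0 probe sets called. WARS1 was also steeper without female 6, at -0.26. The part of RNA quality was not tested. For GAPDH the 3' to 5' ratio was 1.28 at 2 years of age, 1.30 at 3, 0.821 at 30 and 0.869 at 35. That of ACTB went the other way in the same lines, at 0.840, 0.672, 1.17 and 1.19.

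**Figure D5:**
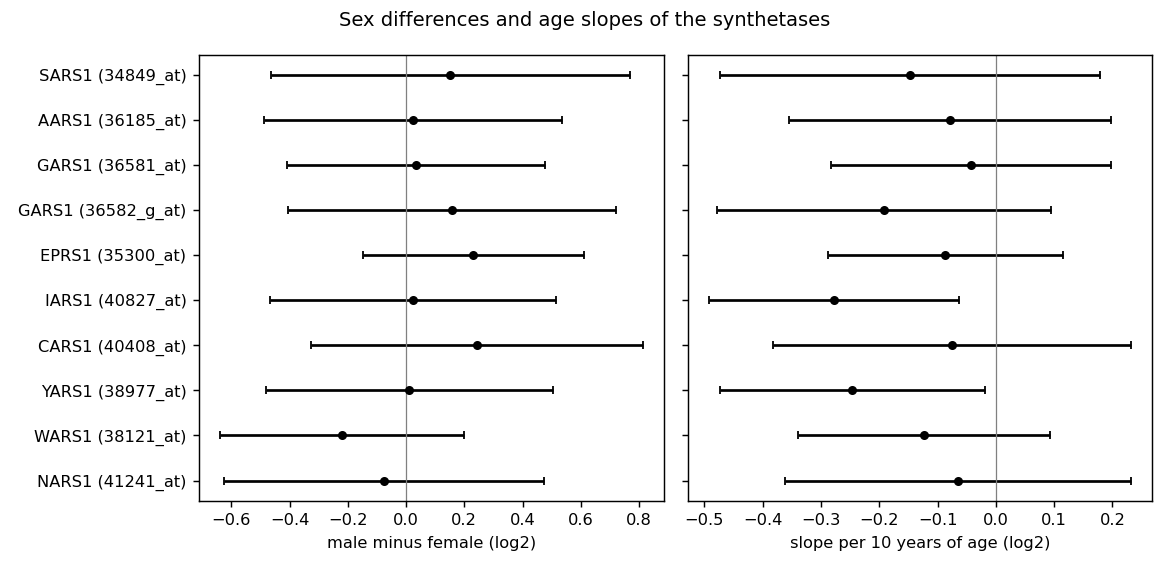
Male minus female difference (left) and slope per 10 years of donor age (right) in log2 units for the 10 synthetase probe sets, from limma over 11 arrays, with 95% intervals. All sex intervals include 0, and all slopes are negative (GARS1 turns to 0.014 with median scaling), with the intervals of IARS1 and YARS1 below 0 before any adjustment.

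The other cytosolic synthetases had 6 of 6 positive slopes, with a median of 0.096 and none called. In the amino acid response 9 of 24 slopes were positive, with a median of -0.040 and none called, the largest being SLC7A11, a cystine transporter gene (0.41), ASNS (-0.37, SE 0.16, limma adjusted p = 0.859), SLC7A1 (-0.31) and SLC1A5 (-0.22). Of the interferon gamma list, with 7 of 11 positive, IRF1 (0.55), TAP1 (0.19), IDO1 (0.16) and CD74 (-0.15) had the largest, and of the mitochondrial list, with 3 of 5 positive, YARS2 (-0.26), FARS2 (0.18), IARS2 (-0.12) and LARS2 (0.087), none of them called. No synthetase's slope was called different between males and females (limma interaction, adjusted p = 0.999 for each, with 0 probe sets called and 284, or 3.77%, at an unadjusted p under 0.05).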

How the data were processed

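The deposited table holds intensities, 1 whole number for each probe set and array on a linear scale. The sources used here do not say how the authors summarised and scaled them. They were taken to log2 and quantile normalized over the 12 arrays. Probe sets with a mean above the 40th percentile were tested, 7541 in all, with the 67 control probe sets left out. limma 3.58.1 (R 4.3.3) gave the sex difference, and in a model that also held sex the slope per 10 years of age, from the 11 standard cultures. Calls were made at a Benjamini-Hochberg adjusted p of 0.05, and the fit was tested on simulated data. The lines come from different donors, and a p-value reflects only how far these lines differ. Precision is limited by how few arrays there are.

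Each gene was represented by its brightest tested probe set. Pair correlations used 100000 permutations, two-sided. Named were all synthetases, up to 4 genes of each list with the largest difference in a comparison, the 8 probe sets nearest the mean of the synthetases, at the floor on at most 2 standard arrays, and the 4 nearest any synthetase with an r under 0.3 with the others. Alternatives were the scaling, floor and filter, a line left out, the covariates, the second culture of male 2, adults alone and probe sets averaged by gene. Further genes were named after their values were seen. The members and lists were chosen with earlier results of these data known.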

Additional observations from a re-analysis of the deposited data

Results flagged for a closer look

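In 20 groups of 5 or 6 lines (10 probe sets in each sex), a line stood apart in 2, and chance flags about 1 group in 20. IARS1 in female 6, the donor of 2 years, was far above the other females, with a gap to the next of 0.664 of the group's range. The dimmer GARS1 probe set in female 3 was far below the other females, with a gap of 0.724 of the range, while on the brighter one that line was lowest without such a gap.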

How the results depend on the processing

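No synthetase was called for sex or age under any of the alternatives run. With male 2 represented by its culture at 50% confluence, limma called 2 probe sets for sex, and 0 to 1 with a line left out. With median scaling the median confluence difference was 0.78 for the synthetases and 0.44 for all tested probe sets. The r of ASNS with the mean of the synthetases was then 0.784. Each line left out in turn gave sex differences of -0.081 to 0.13 for GARS1, -0.16 to 0.11 for YARS1, -0.061 to 0.20 for IARS1, -0.029 to 0.37 for SARS1, -0.10 to 0.17 for AARS1 and -0.22 to 0.054 for NARS1. It gave age slopes of -0.10 to 0.049 for GARS1, -0.20 to 0.011 for AARS1, -0.18 to 0.0036 for CARS1 and -0.18 to 0.17 for NARS1. The median pair r ran from 0.155 to 0.443, the r of ASNS from 0.959 to 0.986 and the median SD from 0.33 to 0.37. With age as a covariate the sex differences of YARS1, IARS1 and AARS1 were -0.083, -0.084 and -0.0075, and with the 50% confluence array those of YARS1 and NARS1 were -0.0018 and 0.052. The age slope of GARS1 was 0.014 with median scaling and 0.0094 with the 50% confluence array, and that of NARS1 was 0.096 in adults. For confluence, YARS1 was 0.038 as deposited, and YARS1 and CARS1 were 0.53 and 0.32 with median scaling. Relative to the median of all tested probe sets under that scaling, YARS1 was 0.090 and CARS1 -0.12. Against the mean of the 11 lines WARS1 was -0.15 and CARS1 0.31. The cause of these changes was not tested. No paired analysis was possible because the line numbers match no male to a female.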
